A study of Mus musculus with 2 samples.

Results

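The genes described here are 9 members of the CXC chemokine system: the 7 chemokines that lie together on mouse chromosome 5 (Cxcl5, Ppbp, Pf4, Cxcl3, Cxcl15, Cxcl1 and Cxcl2, in chromosome order), Cxcl16 on chromosome 11, and Cxcr2 on chromosome 1. They were chosen by gene symbol, and the choice was made knowing how Ppbp differed between the arrays, so their differences are a description. Each of the 9 had 1 row of its own among 65952 rows, which name 30788 different genes. Of the 9 members, 8 passed the low-signal filter, which asks that the brighter value reach 5.44, the median of all values, and Cxcl15 did not.

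The injured group is the corneal epithelium of male and female C57BL/6 mice, 8 weeks old, that was regrowing about 48 hours after a rust ring remover of 0.5 mm had taken it off to full depth up to the limbus, under ketamine and xylazine, with 10% of the wound still open. The uninjured group is the epithelium of the fellow eyes, which had no wound, collected from the whole cornea at the same point. Each group is 1 microarray, so every difference lacks a replicate check, no test was run, and the sources used here do not give the number of mice behind an array. Values are log2 intensities as the authors deposited them, and differences are injured minus uninjured on that scale.

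Chemokines are small secreted proteins that direct the movement of leukocytes through receptors coupled to G proteins. CXC chemokines that carry the motif glutamate, leucine, arginine before their cysteines act through Cxcr2 and are the classical attractants of neutrophils, which enter the cornea from the limbal vessels after an epithelial abrasion. Ppbp encodes the platelet basic protein, a precursor that is trimmed to the Cxcr2 ligand Cxcl7 and is best known from platelet granules, as is its neighbour Pf4, or platelet factor 4, which lacks that motif.

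The 5 members counted here as Cxcr2 ligands, Ppbp, Cxcl5, Cxcl3, Cxcl2 and Cxcl1, were higher in the injured epithelium. Ppbp differed far more than the others. Cxcl15 was not counted among them, and no protein sequence was checked for the motif. Ppbp had a log2 intensity of 13.04 in the injured array, against 5.86 in the uninjured array. That is a difference of 7.19, or 146-fold, and it ranks 2 from the top among 19563 measured genes. The uninjured value lies only a little above the low-signal level, so the fold depends on how that low value is treated, and it was 107-fold with a constant added on the linear scale. In such a bulk sample more cells of a type and more RNA per cell cannot be told apart.

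The other 4 counted ligands of Cxcr2 differed by 1.39 to 2.28, each in the same direction as Ppbp. Cxcl5, called LIX in the mouse, had 7.90 in injured and 5.62 in uninjured epithelium, a difference of 2.28 (4.85-fold). Cxcl3, a chemokine of the GRO type, had 9.83 in injured and 7.55 in uninjured epithelium, a difference of 2.28 (4.86-fold). These chemokines therefore stood almost level in fold, although Cxcl3 was well above the low-signal level in both arrays and Cxcl5 close to it without injury. Cxcl2, the macrophage inflammatory protein 2, had 6.98 in injured and 5.53 in uninjured epithelium, a difference of 1.45 (2.74-fold). Cxcl1, known as KC and the closest functional counterpart of human interleukin 8 together with Cxcl2, had 7.25 in injured and 5.86 in uninjured epithelium, a difference of 1.39 (2.62-fold). The uninjured values of Cxcl2 and Cxcl1 were also close to the low-signal level, and with a constant added on the linear scale each was 2.19-fold higher. The gap between Ppbp and the next member in the order of differences was 4.91 on the log2 scale. The GRO-type genes have similar sequences, and how far their rows share signal was not tested.

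**Figure D1:**
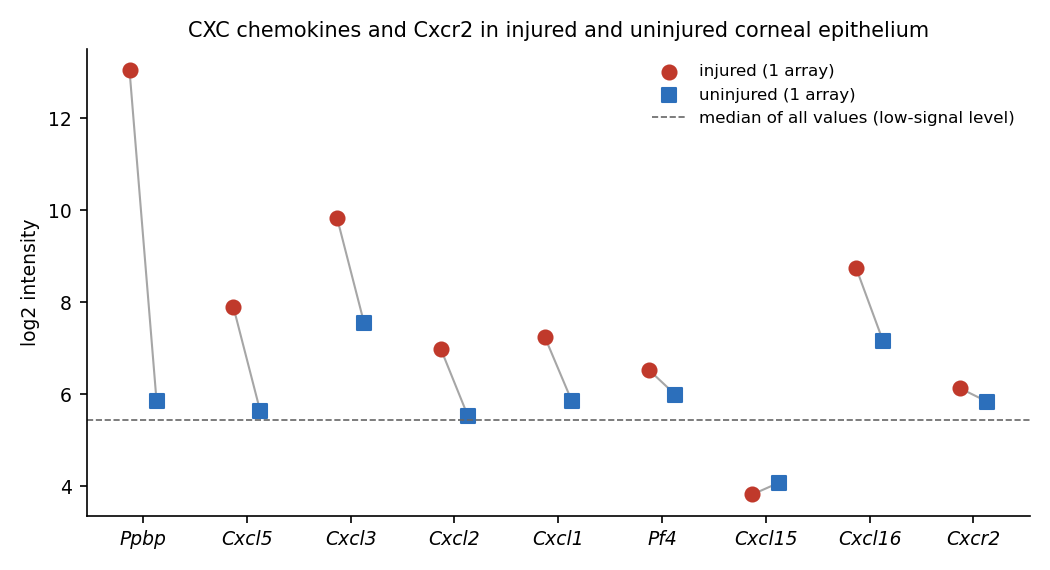
Log2 intensity of the 9 members in the injured array (circles, left of each pair) and the uninjured array (squares, right), with a dashed line at the median of all values, 5.44. The Ppbp pair spans 13.04 to 5.86. The other counted Cxcr2 ligands and Cxcl16 also sit higher in the injured array, and the pairs of Pf4, Cxcl15 and Cxcr2 lie close together. Brightness depends on the probes of a row, so heights compare within a gene.

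The remaining chemokines of the cluster did not pass 2-fold. Pf4 had 6.54 in injured and 5.98 in uninjured epithelium, a difference of 0.55 (1.47-fold), although it is the next gene after Ppbp on the chromosome. The difference of Ppbp exceeded that of Pf4 by 6.64 on the log2 scale. Cxcl15, or lungkine, a chemokine of lung epithelium, had 3.82 in injured and 4.08 in uninjured epithelium, both below the low-signal level, so its difference of -0.26 shows no direction.

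Cxcl16, which is made as a membrane-bound protein and binds Cxcr6, had 8.75 in injured and 7.15 in uninjured epithelium, a difference of 1.59 (3.02-fold). Cxcr6 was below the low-signal level in both arrays, at 4.44 in injured and 4.43 in uninjured epithelium. The proteases that shed Cxcl16 from the cell surface were less than 2-fold apart. Adam10 had 10.30 in injured and 9.94 in uninjured epithelium, a difference of 0.35, and Adam17 differed by -0.02. Cxcr2 itself, the receptor through which Ppbp and the GRO-type ligands act, had 6.13 in injured and 5.84 in uninjured epithelium, a difference of 0.29 (1.22-fold). The receptor was thus less than 2-fold apart, and the 5 ligands counted here, which leave out Cxcl15, were more than 2-fold apart. Both values of Cxcr2 lay not far above the low-signal level.

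Counting a gene as higher or lower when it differed by 1 or more on the log2 scale, which is 2-fold, 6 of the 8 measured members were higher and 0 were lower. Among all 19563 measured genes the share past 2-fold was 4.15% on the higher side and 3.91% on the lower side. Nothing is read from that contrast, since the members were chosen with it known. The median difference of the 8 measured members was 1.52, and of all measured genes 0.06. At 4-fold or more, 3 members were higher, namely Ppbp, Cxcl3 and Cxcl5, against 0.705% of all measured genes. With a constant added on the linear scale Cxcl5 was 3.70-fold higher, and 2 members were then past 4-fold.

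**Figure D2:**
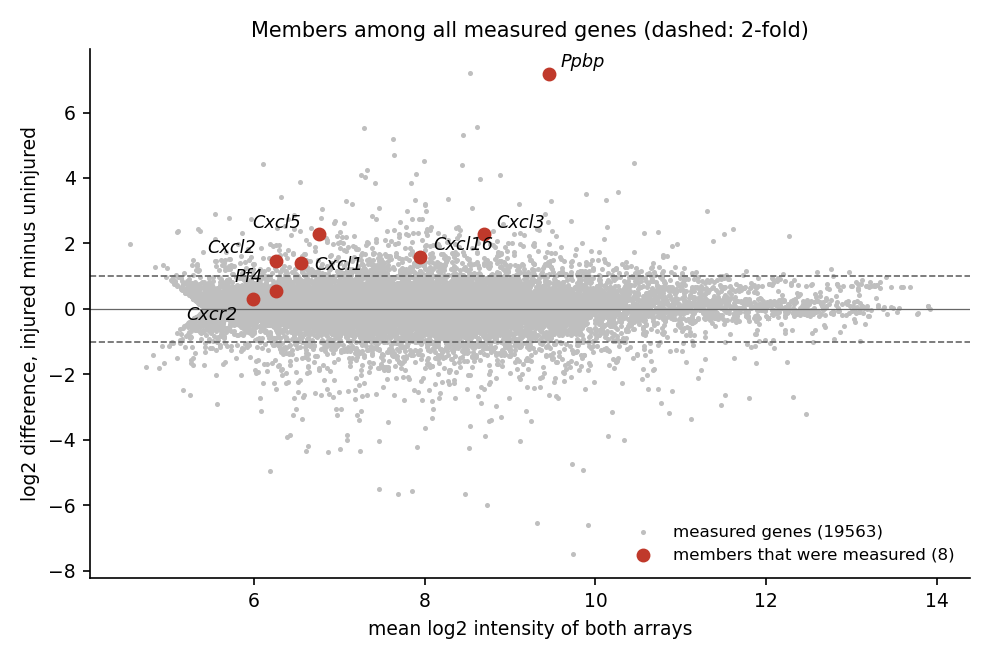
Log2 difference (injured minus uninjured) against the mean log2 intensity of both arrays for the 19563 measured genes (grey) and the 8 measured members (red, named), with dashed lines at 2-fold. Ppbp stands at 7.19 near the top edge of the cloud, 5 other members lie above the 2-fold line, and Pf4 and Cxcr2 lie below it.

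The differences varied from gene to gene along the cluster. RefSeq places 20 other genes within 500 kb of the 7 clustered chemokines, and 13 of them had a row of their own. None of these 13 was 2-fold apart, with differences of -0.64 to 0.78, and 8 of the 13 passed the low-signal filter. On the side of Cxcl5 the nearest gene with a row is Rassf6, a tumour suppressor of the Ras association family, which had 6.42 in injured and 7.06 in uninjured epithelium. Beyond it the liver genes Alb, Afp and Afm lay at 4.25 to 4.65 in the injured and 4.27 to 4.73 in the uninjured array, below the low-signal level. On the side of Cxcl2 come Mthfd2l, a mitochondrial folate enzyme (0.17), and the epidermal growth factor relatives Epgn (0.78), Ereg (0.41) and, farther off, Btc (-0.53). The large differences thus ran from Cxcl5 to Cxcl2, interrupted by Pf4 and Cxcl15.

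**Figure D3:**
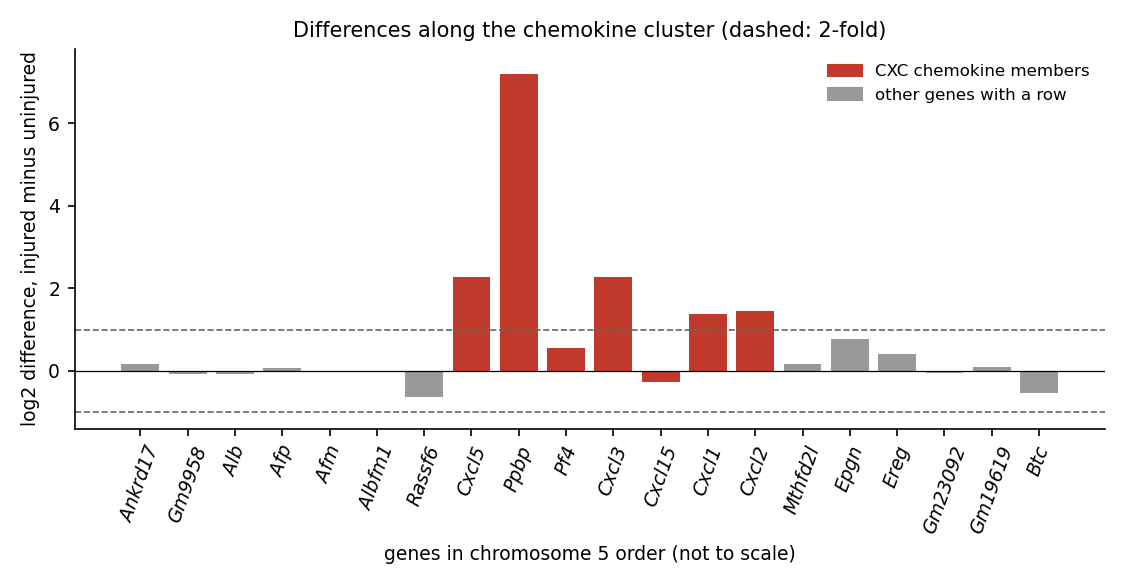
Log2 difference (injured minus uninjured) of the 7 clustered chemokines (red) and the 13 neighbouring genes that had a row (grey), in the order RefSeq gives on chromosome 5, with dashed lines at 2-fold. Ppbp (7.19), Cxcl5, Cxcl3, Cxcl2 and Cxcl1 pass the upper line, and Pf4 (0.55), Cxcl15 and all 13 neighbours do not.

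The promoter windows of 5 clustered genes are shown because the genes lie in the same cluster and differ in how far they moved. The window of Cxcl15, which lies between Cxcl3 and Cxcl1 and was below the low-signal level, is not printed. Each window is RefSeq sequence of GRCm38.p6 on the plus strand, from 250 bases before the gene's start to 50 after it, and RefSeq windows were matched for 7 of the 9 members (Ppbp, Pf4, Cxcl3, Cxcl15, Cxcl1, Cxcl2 and Cxcr2). Capitals mark matches, on either strand, to the NF-kappa B consensus, the AP-1 site TGANTCA, the TATA box TATAAA and the C/EBP motif TTGCNNAA. The windows are chr5:90768268-90768567 for Ppbp, chr5:90772185-90772484 for Pf4, chr5:90785851-90786150 for Cxcl3, chr5:90890995-90891294 for Cxcl1 and chr5:90903649-90903948 for Cxcl2.
Ppbp: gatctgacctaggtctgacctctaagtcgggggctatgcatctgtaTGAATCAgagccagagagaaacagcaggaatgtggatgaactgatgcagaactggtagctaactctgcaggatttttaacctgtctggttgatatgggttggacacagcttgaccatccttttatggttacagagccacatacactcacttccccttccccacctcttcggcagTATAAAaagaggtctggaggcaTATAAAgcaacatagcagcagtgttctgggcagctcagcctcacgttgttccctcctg
Cxcl3: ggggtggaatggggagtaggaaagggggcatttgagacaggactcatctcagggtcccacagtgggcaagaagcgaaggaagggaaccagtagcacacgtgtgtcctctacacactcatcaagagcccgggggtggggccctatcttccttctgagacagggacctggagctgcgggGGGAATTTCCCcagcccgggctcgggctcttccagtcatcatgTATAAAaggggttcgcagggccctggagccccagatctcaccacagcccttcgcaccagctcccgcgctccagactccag
Cxcl1: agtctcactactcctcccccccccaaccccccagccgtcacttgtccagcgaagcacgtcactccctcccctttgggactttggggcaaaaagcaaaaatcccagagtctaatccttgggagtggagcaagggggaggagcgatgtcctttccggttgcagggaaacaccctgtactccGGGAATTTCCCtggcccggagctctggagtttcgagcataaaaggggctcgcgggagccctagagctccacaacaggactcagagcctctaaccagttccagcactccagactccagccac
Cxcl2: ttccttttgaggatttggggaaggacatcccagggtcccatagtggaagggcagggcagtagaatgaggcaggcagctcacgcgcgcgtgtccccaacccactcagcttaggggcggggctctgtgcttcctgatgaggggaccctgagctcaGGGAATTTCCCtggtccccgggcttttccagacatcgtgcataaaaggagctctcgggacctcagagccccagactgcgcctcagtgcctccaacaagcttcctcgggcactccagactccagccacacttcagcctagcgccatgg
Pf4: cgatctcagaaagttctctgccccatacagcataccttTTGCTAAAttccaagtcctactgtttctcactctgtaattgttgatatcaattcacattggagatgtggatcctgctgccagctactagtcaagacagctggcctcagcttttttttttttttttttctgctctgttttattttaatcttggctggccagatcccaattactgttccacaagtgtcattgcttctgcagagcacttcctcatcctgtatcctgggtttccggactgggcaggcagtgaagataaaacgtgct

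NF-kappa B is a transcription factor of inflammatory signalling and AP-1 one of growth and stress signalling. The GRO-type genes Cxcl3, Cxcl1 and Cxcl2 share the same 11-base run, which matches the NF-kappa B consensus on both strands and begins 73, 71 and 97 bases before the start. Their windows are 53.2% to 57.6% identical in a global alignment, each is 48.2% to 49.7% identical to that of Ppbp, and the other pairs of member windows are 41.1% to 48.6% identical. The consensus was found in 3 of the 7 member windows and in 4.36% of 27025 promoter windows of the same length. The Ppbp window has a TATA box 30 and another 8 bases before the start and an AP-1 match 204 bases before it. The exact letters TATAAA were found in 3 of the 7 member windows, those of Ppbp, Cxcl3 and Cxcl15, and in 14.1% of all windows. Variants, such as the cataaaa in the windows of Cxcl1 and Cxcl2, were not counted. AP-1 was found in 1 of the 7, that of Ppbp, and in 7.91% of all windows, and the C/EBP motif in 1, that of Pf4, and in 10.7% of all. The match is of letters only, and binding was not measured. Ppbp, with the largest difference of the members, and its neighbour Pf4, with a small one, both lack the NF-kappa B letters in this window.

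The listed chemokines beyond the 9 members were less than 2-fold apart wherever they were measured. Of the 7 other CXC chemokines 2 were measured, and neither passed 2-fold, Cxcl17, a chemokine of mucosal tissue, with 7.23 in injured and 7.01 in uninjured epithelium, and Cxcl14, an epithelial chemokine, with 6.22 in injured and 6.39 in uninjured epithelium. The interferon-induced chemokines Cxcl9, Cxcl10 and Cxcl11, which lie elsewhere on chromosome 5, stayed below the low-signal level in both arrays, at 4.66, 4.78 and 5.22 in the injured array and 4.62, 4.63 and 5.40 in the uninjured array. Of 20 CC and other chemokines 13 were measured and 0 passed 2-fold, with a median of 0.15 and a range of -0.87 to 0.46. The lowest of them was Cx3cl1, or fractalkine, with 7.22 in injured and 8.09 in uninjured epithelium. The monocyte attractant Ccl2 had 5.94 in injured and 5.79 in uninjured epithelium. Of 18 other chemokine receptors 8 were measured and 0 passed 2-fold (median 0.19), among them Cxcr1, another receptor for such ligands, at 6.05 in injured and 5.98 in uninjured epithelium. These shares stand beside the 4.15% of all genes that were at least 2-fold higher.

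The RNAs of signals known to induce the Cxcr2 ligands in epithelia were mostly less than 2-fold apart, like the bulk of the genes. Of all 19563 measured genes, 4.15% were past that mark upward and 3.91% downward, so a low count is not particular to these signals. Protein, release and activity of these signals were not measured. Of 20 inducing cytokines and their receptors 16 were measured, and 1, the alarmin Il33, was at least 2-fold higher, with 10.64 in injured and 6.66 in uninjured epithelium (15.7-fold). The next were the shared receptor chain Il1rap, with a difference of 0.95, and Il1b, with 6.29 in injured and 5.35 in uninjured epithelium and a difference of 0.94. The classical inducer Il1a was bright in both arrays, with 9.36 in injured and 9.41 in uninjured epithelium (-0.05). Tnf, also a classical inducer (-0.30), and the epithelial cytokine Il17c (-0.05) lay near or below 0. Il17a was below the low-signal level in both arrays. Of 18 genes of NF-kappa B, C/EBP and chemokine mRNA decay, 17 were measured and 0 passed 2-fold (median 0.13). Within that list Tnfaip3, an NF-kappa B feedback inhibitor, differed most upward, by 0.61, and Zfp36, which promotes the decay of cytokine mRNAs, most downward, with 8.53 in injured and 9.27 in uninjured epithelium (-0.74).

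Genes that carry, cut or relay the chemokines were mostly less than 2-fold apart, as were most measured genes (4.15% at least 2-fold higher, 3.91% lower). Of 12 measured carriers and proteases the heparan sulfate polymerase Ext1 alone was at least 2-fold higher, with 8.95 in injured and 7.89 in uninjured epithelium (1.06), a call that ends with the added constant (0.997). The syndecans Sdc1 (-0.54) and Sdc4 (-0.77), proteoglycans that bind chemokines through heparan sulfate, and Dpp4, a protease that trims many chemokines (-0.98), had negative differences of less than 2-fold. Of 12 measured genes of Cxcr2 signalling 0 passed 2-fold (median 0.09). Among 10 measured partners in neutrophil recruitment the prostaglandin synthase Ptgs2 alone was at least 2-fold higher, with 9.99 in injured and 5.29 in uninjured epithelium (4.71). The adhesion molecule Icam1 reached 7.84 in the injured against 6.84 in the uninjured array, just short of 2-fold (0.998), and the neutrophil growth factor Csf3 differed by 0.84.

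**Figure D4:**
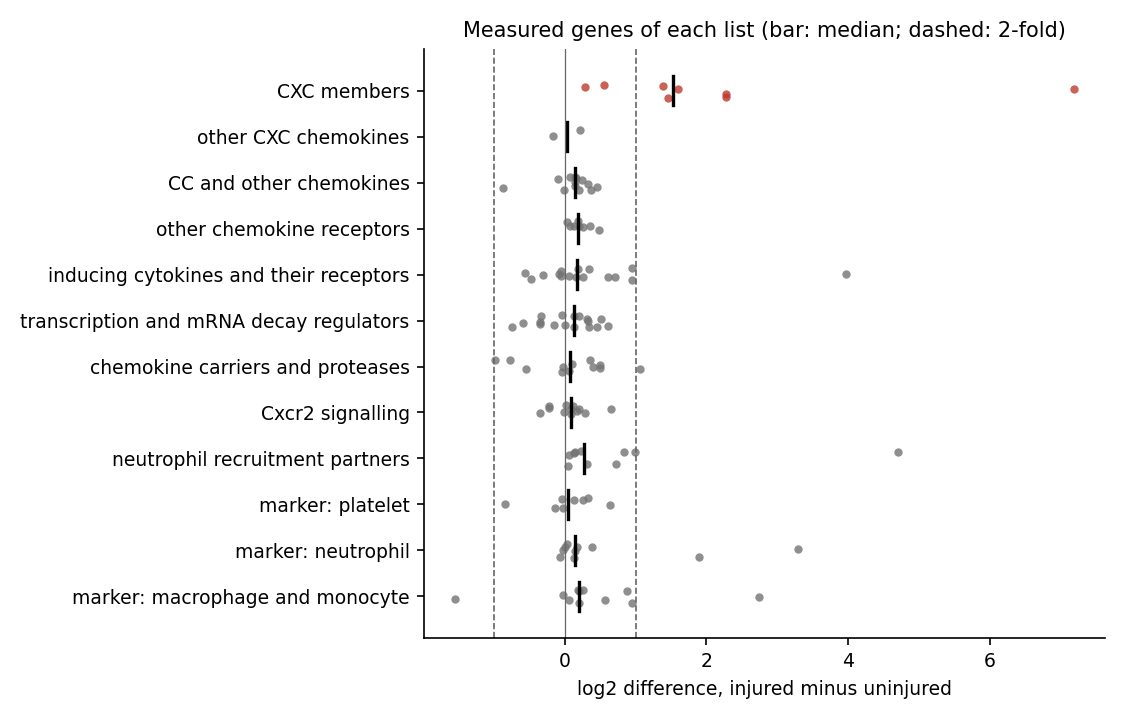
Log2 difference (injured minus uninjured) of every measured gene in the CXC members (red) and in 11 gene lists (grey), with the median of each as a bar and dashed lines at 2-fold. The members have a median of 1.52, and the 11 lists have medians of 0.03 to 0.28 with single genes such as Il33 (3.97) and Ptgs2 (4.71) apart. The rest of the 17 lists are not drawn, among them the corneal epithelium markers, with a median of -1.32.

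Because Ppbp and Pf4 are abundant in platelets, platelet markers were set beside them. Of 15 platelet markers 12 had a row and 8 were measured, 0 of them 2-fold apart (median 0.05). That count stands beside the 4.15% of all measured genes at least 2-fold higher and the 3.91% at least 2-fold lower. The integrin Itga2b had 6.75 in injured and 6.79 in uninjured epithelium, and the glycoprotein Gp9 had 7.22 in injured and 7.25 in uninjured epithelium. The summed linear intensity of the 12 was 979 in injured and 1162 in uninjured epithelium. That sum turns on Alox12, a lipoxygenase that epithelia also make, with 8.07 in injured and 8.91 in uninjured epithelium, and the other 11 summed to 710 in injured and 680 in uninjured epithelium. The glycoprotein Gp5 (0.64), the platelet tubulin Tubb1 (0.33) and the platelet receptor Treml1 (0.25) had positive differences of less than 2-fold. The part of platelets in the Ppbp difference was not tested. Of 9 red blood cell markers only 2 were measured, both less than 2-fold apart, and the globin genes had no row of their own.

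Neutrophil markers, set beside Cxcr2, which neutrophils carry, were split. Of 16, 14 had a row and 10 were measured, 2 of them at least 2-fold higher: lactoferrin, Ltf, with 11.13 in injured and 7.84 in uninjured epithelium, and the calprotectin subunit S100a9, with 7.67 in injured and 5.77 in uninjured epithelium. Epithelial cells can make both. Of the 4 markers with a row below the low-signal level, S100a8, the other calprotectin subunit, differed most. It had 5.32 in injured and 3.77 in uninjured epithelium. The listed markers Ly6g (5.58 injured, 5.44 uninjured) and Mpo (5.49 injured, 5.45 uninjured) stood at about the low-signal level in both arrays. Csf3r differed by 0.38, and among the measured markers only Elane (-0.06) and Itgb2l (-0.02) had negative differences. The summed linear intensity of the 14 was 3188 in injured and 946 in uninjured epithelium, and Ltf alone carried most of that gap. The other 13 summed to 946 in injured and 718 in uninjured epithelium. Without S100a9 as well, the other 12 summed to 743 in injured and 663 in uninjured epithelium. The part of neutrophils in the differences of the chemokines was not tested. Of 11 measured macrophage and monocyte markers Ly6c2, which may share signal with the near-identical Ly6c1, was at least 2-fold higher (2.75) and Itgam at least 2-fold lower (-1.55). Cd14 (0.94), Lyz2 (0.87) and C1qb (0.57) had positive differences of less than 2-fold, and C1qa a negative one (-0.03). The summed linear intensity of the 15 markers was 2344 in injured and 2374 in uninjured epithelium. Itgam, at 10.26 in uninjured epithelium, had the highest value of that list. Without Itgam and Ly6c2, the other 13 summed to 1292 in injured and 1052 in uninjured epithelium.

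The tissue label was checked against corneal epithelial markers. Krt12, the keratin of corneal epithelium, had 10.85 in injured and 14.07 in uninjured epithelium, and Krt5 had 13.69 in injured and 13.85 in uninjured epithelium, so both arrays carried bright epithelial keratins. Of 9 measured corneal markers 5 were at least 2-fold lower in the injured array, led by Lypd2 (-7.49) and Slurp1 (-6.61), and Krt14 was higher (2.23). Of 4 measured endothelial markers the vascular endothelial growth factor receptor Flt1 alone was at least 2-fold higher (2.02), with the junction protein Cdh5 at 5.55 in injured and 5.48 in uninjured epithelium. Of 6 measured keratocyte markers Aldh1a1 (-3.30), which the epithelium also expresses, and Dcn (-1.31, or -0.88 and no longer past 2-fold with the added constant) were lower. Of 9 measured conjunctival and goblet cell markers Krt8 (1.52) and Krt19 (1.11) were higher and Muc5ac lower (-1.26). In that list Krt13 had 11.77 in injured and 12.06 in uninjured epithelium. Krt4 had 11.98 in injured and 11.85 in uninjured epithelium. Bright keratins were thus not only corneal ones, and a share of conjunctival epithelium in either array was not tested. Of 6 measured lymphocyte and mast cell markers Kit alone passed 2-fold, and it was lower (-2.38). The mast cell markers Cpa3 and Mcpt4 were below the low-signal level in both arrays, and Tpsb2 differed by -0.07. The part of mast cells in the Kit difference was not tested.

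Measures of spread within this pair of arrays are set beside the differences of the members. Where a gene had several rows, their differences had a within-gene SD of 0.246 (622 rows, 289 genes). Rows named for odorant and vomeronasal receptors, genes of the nose, had an SD of the difference of 0.200 over 1734 rows, and 2 of them were 2-fold apart. The differences of Cxcr2 (0.29) and Cxcl15 (-0.26) are about as large as these SDs, that of Pf4 (0.55) is over 2 times either SD, and those of Cxcl1, Cxcl2, Cxcl16, Cxcl3, Cxcl5 and Ppbp are several times larger than the SDs. Neither SD includes the spread between animals or between repeated arrays, so neither tells whether a difference would repeat. A shift common to all rows of a gene does not enter the within-gene SD. The receptor rows were dim, with a median value of 3.88. The 95th percentile of the values of those receptor rows was 5.33, and every member other than Cxcl15 lay above it in both arrays.

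The genes whose pair of values lay nearest to that of Ppbp, by Euclidean distance over the 2 arrays, were Dynap (distance 1.30), a dynactin-associated protein, the cornified envelope genes Sprr2b (1.66) and Sprr1b (1.94), whose family holds near-identical copies that may share signal, the actin crosslinker Actn1 (2.33) and the wound keratin Krt16 (2.39). Dynap had 12.13 in injured and 4.93 in uninjured epithelium, and its difference of 7.20 was the 1 difference above that of Ppbp, though with the added constant Dynap had 6.45 and Ppbp 6.75. With 2 arrays this likeness rests on a pair of values per gene and on the brightness of each row's probes.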

How the data were processed

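Corneal epithelium RNA of 1 injured and 1 uninjured sample was measured on biotin-labelled microarrays (2 µg RNA, per the labels). The authors deposited log2 intensities, 65952 rows between 2.54 and 14.1. Agilent Feature Extraction 9.1 is named per the submitters' processing notes, although the deposited row identifiers have the form of Affymetrix transcript clusters, so which platform software made the values is not settled here. For background correction, summary of probes, normalization and genome build, the method is not stated there. The columns' medians differed by 0.0135, so values were kept as deposited.

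The platform's annotation named the rows, with symbols updated through RefSeq (GRCm38.p6): 31431 rows carried 1 gene, 1315 several (left unnamed) and 33206 are unnamed here. Genes whose brighter value reached 5.44 were kept (19563), the row with the highest mean standing for a gene. With 1 array per group no test was run. The counting code was tested on simulated data with planted differences past 2-fold and less spread than the SDs given above. That test covers the code and not the noise of these arrays. Tools were Python 3.11.15, pandas 2.3.3, statsmodels 0.14.6 and matplotlib 3.10.9.

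Members and the 17 gene lists were chosen with earlier results of these data known. Genes named were the members, up to 4 per list that were 2-fold apart, Itga2b, Gp9, Ly6g, Mpo, neighbours 2-fold apart and the 5 nearest to Ppbp. Others named, and the odorant and vomeronasal receptor yardstick, were chosen after their values were seen. Protein sequences were not used here. The alternatives were other scalings, an added constant, other filters, thresholds and choices of row.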

Additional observations from a re-analysis of the deposited data

How the results depend on the processing

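Scaling both columns to equal medians or 75th percentiles, quantile normalization, a loess fit (span 0.3) and averaging the rows of a gene left the Ppbp difference between 7.17 and 7.19, with 6 members past 2-fold upward and 0 downward. Adding 20.9 to the linear values, the Ppbp difference was 6.75, since the constant shrinks differences of dim values, and 6 members still passed 2-fold. Cxcl5 was then 1.89, Cxcl2 1.13 and Cxcl1 1.13. The median difference of the members was 1.45 with no low-signal filter, 1.45 without Ppbp, 1.30 with the constant and 1.94 with a filter at the 75th percentile, which leaves 6 members, those that were 2-fold higher. At 4-fold the count of members higher was 3, by construction of the threshold, and 2 with the constant as well, a combination chosen after seeing the data. Of 209 values under these settings for 35 other genes named by rule, members included, 14 moved by 0.246 or more, all with the constant. Of the 209 values 1 changed sign, that of Mpo, which was 0.04 as deposited and -0.0064 with the loess fit, and no gene that was 2-fold apart changed sign. With the constant Ext1 (0.997) and Dcn (-0.88) no longer reached 2-fold. With 1 array per group no replicate could be left out. No paired analysis was possible because each group has 1 sample. No scanner files were used here, so signal over background and saturation are unknown for each value.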
